A study of Rattus norvegicus with 6 samples.

Results

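Transcripts of glutamate uptake and of the glutamate-glutamine cycle were described in the whole hippocampus of Syracuse High Avoidance (SHA) rats against Syracuse Low Avoidance (SLA) rats. The 6 genes were the glutamate transporters Slc1a1, Slc1a2 and Slc1a3, glutamine synthetase (Glul), glutamate dehydrogenase (Glud1) and the vesicular glutamate transporter Slc17a7. They were taken as every probe set that the array's annotation assigns to exactly 1 of these genes, which gave 19 probe sets, out of 4736 genes named on the array. SHA and SLA are rat lines named for good and poor learning of two-way active avoidance, in which a rat learns to cross a box at a signal that precedes a shock. RNA of each line came from 3 pools holding 3 rats apiece, and every pool of both lines came from rats killed 2 weeks after that testing, so no untested animals stand beside them. The labels give no age, sex or other treatment. The pool is the replicate (n = 3 per line), and the labels do not say whether pools were prepared apart.

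Glutamate released by excitatory neurons is cleared from the synapse by sodium-coupled transporters, mostly those of astrocytes. Astrocytes join it to ammonia to form glutamine, which returns to neurons and is turned back into glutamate by glutaminase. Glutamate dehydrogenase instead passes its carbon to the citrate cycle in mitochondria, and vesicular transporters load glutamate into synaptic vesicles for the next release. In the hippocampus these steps serve the dentate, CA3 and CA1 pathways, which use glutamate as their transmitter.

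No gene of the cycle separated the lines. Of the 19 probe sets, 17 were bright enough to be tested, and none of the 17 had SHA and SLA pools without overlap, where 5.66% of the 6555 probe sets tested did (2.01% with SHA higher, 3.65% with SHA lower). In limma's test none of the 17 had an adjusted p under 0.05, and none an unadjusted p under 0.05. Over all probe sets 0% passed the adjusted threshold and 1.5% had an unadjusted p under 0.05. Each difference below is the SHA mean minus the SLA mean on the log2 scale, ± its standard error. The median difference was 0.09 over the 17 probe sets and -0.01 over all tested, and the median absolute difference was 0.12 against 0.24. The median standard error was also smaller, at 0.29 against 0.44, so these absolute medians were not matched for precision. The adjusted p, by Benjamini-Hochberg over all 6555 probe sets, was 1.00 for each of the 17. RNA of whole tissue was measured, so fewer cells of a type and less RNA per cell cannot be told apart.

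**Figure D1:**
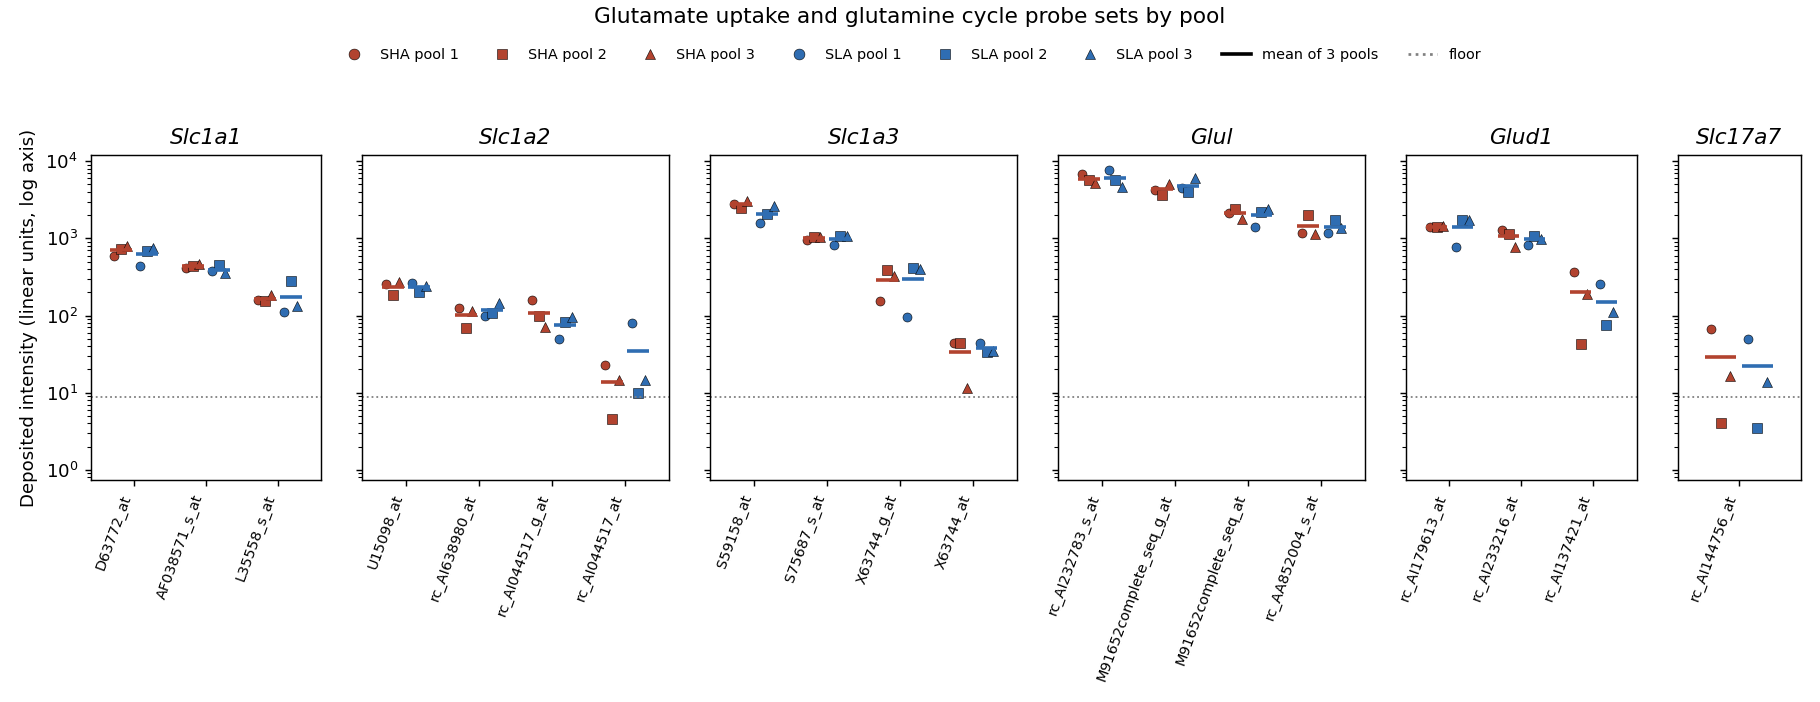
Deposited intensity (linear units on a log axis) of the 19 probe sets in each pool, with SHA pools left of SLA pools for each probe set. Points are single pools with a symbol for the pool number, bars are means of 3 pools, and the dotted line is the floor of 8.9 set before taking logs. Pools of both lines overlap for each probe set. Heights of different probe sets cannot be compared, since probes differ in brightness.

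Slc1a3, the transporter known as GLAST that astrocytes carry throughout the hippocampus, had the probe set closest to a line difference. S59158_at read 2815, 2507 and 3099 in SHA pools 1, 2 and 3, against 1602, 2064 and 2609 in SLA pools 1, 2 and 3. The lowest SHA pool lay below the highest SLA pool, so the lines overlapped by those 2 pools alone. The means were 2807 ± 296 in SHA and 2092 ± 504 in SLA (SD, n = 3 each), and the difference was 0.45 ± 0.26 (limma, unadjusted p = 0.11, adjusted p = 1.00). SHA was higher within each pool number, by 0.81, 0.28 and 0.25 for the numbers 1, 2 and 3. With the pool number as a block the standard error was 0.15 and the unadjusted p 0.020, with an adjusted p of 0.83. In that blocked fit 5.26% of all probe sets had an unadjusted p under 0.05, and S59158_at was the 1 member that did. The difference was 0.27 without SLA pool 1, the pool that read lowest, 0.26 without both pools numbered 1 and 0.21 with array weights.

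The other 3 probe sets of Slc1a3 did not repeat that difference. S75687_s_at read 952, 1035 and 1039 in SHA pools and 810, 1065 and 1065 in SLA pools, a difference of 0.05 ± 0.22. X63744_g_at read 153, 386 and 327 in SHA pools and 94.5, 409 and 402 in SLA pools, a difference of 0.10 ± 0.59. Its values were low in both pools numbered 1 and high in both numbered 2, and pool number held 92.8% of its variation while line held 0.41%. X63744_at was dim, with 44.7, 44.4 and 11.4 in SHA pools and 44.0, 33.5 and 35.2 in SLA pools. Its difference was -0.40 ± 0.72, and without SHA pool 3, its lowest value, it was 0.26. S59158_at differed from S75687_s_at in its line difference by 0.40, with p = 0.2 in a two-sided exact permutation test over pools, adjusted p = 1 over the 21 pairs of probe sets of 1 gene. With 3 pools against 3 this test allows no p under 0.1.

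Slc1a2, the transporter known as GLT, which takes up most of the glutamate released in the forebrain, showed a difference near 0 on its brightest probe set. U15098_at read 254, 182 and 271 in SHA pools, against 265, 205 and 239 in SLA pools. Both pools numbered 2 were the lowest of their line. The means were 236.0 ± 47.3 in SHA and 236.5 ± 30.3 in SLA, a difference of -0.02 ± 0.29, and the 95% interval reached from 0.63-fold to 1.56-fold. The probe set rc_AI638980_at read 124, 68.4 and 116 in SHA pools and 97.3, 108 and 147 in SLA pools, a difference of -0.22 ± 0.41. The probe set rc_AI044517_g_at read 159, 97.3 and 71.3 in SHA pools and 49.1, 81.6 and 95.3 in SLA pools. Its difference of 0.51 ± 0.48 was the greatest of the 17, yet it was 1.69 within the pools numbered 1, 0.25 within those numbered 2 and -0.42 within those numbered 3. It was -0.08 without both pools numbered 1 and 0.17 with array weights.

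The remaining probe set of Slc1a2, rc_AI044517_at, was among the dimmest 25% and was not tested. It read 22.7, 4.5 and 14.6 in SHA pools and 80.8, 9.9 and 14.4 in SLA pools, with SHA pool 2 under the floor of 8.9. Fitted with no filter on brightness, it differed by -0.66 ± 0.86, the opposite sign to rc_AI044517_g_at, which is named after the same deposited sequence. In both lines its highest value was in pool 1.

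Slc1a1, the transporter known as EAAC that neurons carry on their cell bodies and dendrites, had a small positive difference on each of its 3 probe sets, within the spread of the pools. D63772_at read 589, 737 and 798 in SHA pools, against 433, 685 and 762 in SLA pools. Pool 1 was the lowest and pool 3 the highest in both lines, and pool number held 80.2% of the variation. The difference was 0.21 ± 0.28, with 0.45, 0.10 and 0.07 within the numbers 1, 2 and 3, and it was -0.04 without SLA pool 1. AF038571_s_at read 408, 443 and 466 in SHA pools and 377, 451 and 356 in SLA pools, a difference of 0.16 ± 0.24. Its 95% interval, from 0.77-fold to 1.61-fold, was among the narrower ones. L35558_s_at read 158, 156 and 184 in SHA pools and 110.4, 284 and 133 in SLA pools, a difference of 0.04 ± 0.41. There the SHA pools were close together, with an SD of 15.8, while SLA pools had an SD of 94.5 because SLA pool 2 stood high.

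Glul, glutamine synthetase, which is confined largely to astrocytes in the brain and makes glutamine from glutamate, differed little between the lines on each of its 4 probe sets. On rc_AI232783_s_at the readings were 6798, 5796 and 5207 in SHA pools, against 7728, 5762 and 4592 in SLA pools. Both lines ran in the same order of pool number, which held 90.6% of the variation. The means were 5934 ± 804 in SHA and 6028 ± 1585 in SLA, a difference of 0.00 ± 0.29 with a 95% interval from 0.64-fold to 1.57-fold. M91652complete_seq_g_at read 4221, 3662 and 5098 in SHA pools and 4485, 4047 and 5997 in SLA pools. SHA was lower within each number, by a difference of -0.09, -0.14 and -0.23 for the numbers 1, 2 and 3, and the fitted difference was -0.16 ± 0.27.

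On the 2 remaining Glul probe sets the pools of the lines overlapped too. M91652complete_seq_at read 2120, 2414 and 1796 in SHA pools and 1424, 2208 and 2424 in SLA pools, a difference of 0.09 ± 0.27. Its sign changed with the number, at 0.57 within pools numbered 1, 0.13 within those numbered 2 and -0.43 within those numbered 3. On rc_AA852004_s_at the readings were 1165, 2002 and 1148 in SHA pools and 1170, 1713 and 1372 in SLA pools, a difference of -0.01 ± 0.29. Both pools numbered 2 were the highest of their line there, while on M91652complete_seq_g_at both were the lowest. The 4 probe sets of Glul thus differed in which pool number read high, although each had a 95% interval within 2-fold in either direction.

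Glud1, the mitochondrial enzyme that turns glutamate into 2-oxoglutarate, had a positive difference on each of its 3 probe sets, of 0.10 ± 0.33, 0.12 ± 0.26 and 0.16 ± 0.76. On rc_AI179613_at the readings were 1388, 1417 and 1459 in SHA pools, against 771, 1749 and 1746 in SLA pools. The SHA pools lay close together and inside the SLA range, and the means were 1421 ± 36.0 in SHA and 1422 ± 563 in SLA. Without SLA pool 1 the difference was -0.30. On rc_AI233216_at the readings were 1280, 1157 and 779 in SHA pools and 825, 1085 and 996 in SLA pools, with the lowest value of all in SHA pool 3. On rc_AI137421_at they were 370, 43.1 and 192 in SHA pools and 260, 76.0 and 112 in SLA pools. That probe set was highest in pool 1 and lowest in pool 2 of both lines, pool number held 88.6% of its variation, and its interval reached from 0.34-fold to 3.62-fold.

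Slc17a7, the vesicular transporter of hippocampal and cortical excitatory neurons, had a single probe set, rc_AI144756_at, which was too dim to be tested. It read 66.6, 4.0 and 16.6 in SHA pools, against 50.2, 3.5 and 13.7 in SLA pools. Pool 2 of both lines lay under the floor of 8.9, pool 1 was the highest in both, and pool number held 98.5% of the variation. Fitted with no filter it differed by 0.23 ± 0.97. Other transcripts of excitatory neurons were bright on the same arrays: Nrgn, neurogranin, read 4682 to 7730 in SHA pools and 4273 to 7088 in SLA pools. Probe sets differ in brightness, so how far these readings follow the level of Slc17a7 was not tested.

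**Figure D2:**
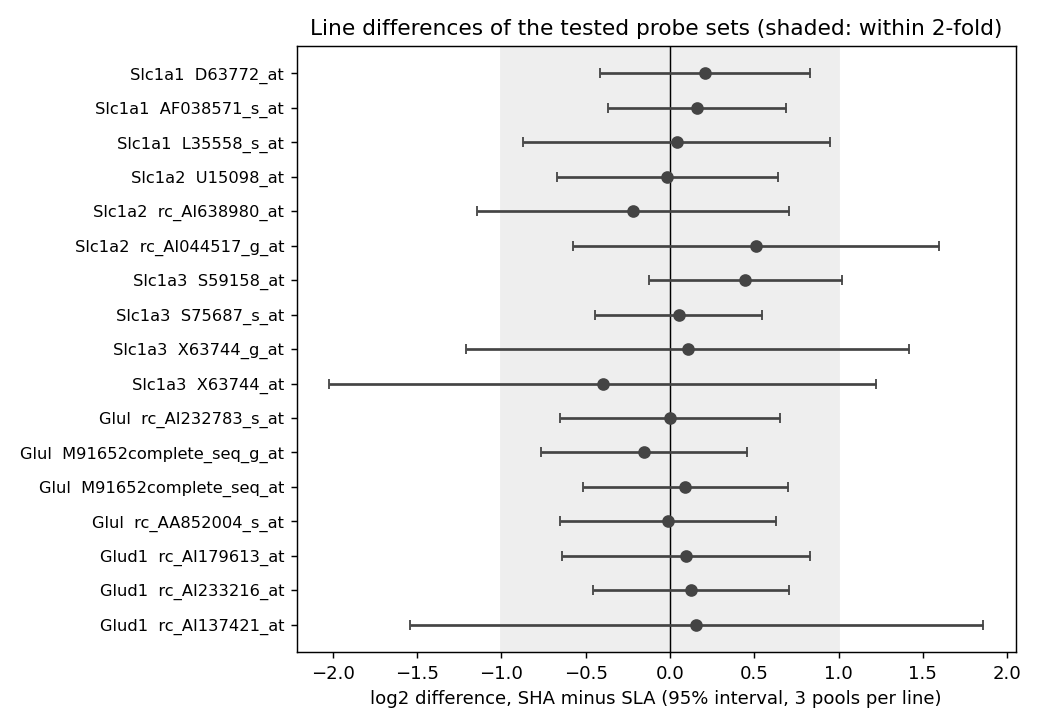
Difference between lines (log2 SHA minus SLA, horizontal axis) of the 17 tested probe sets, each a point with its 95% interval from limma over 3 pools per line, without the pool number as a block. The shaded band marks differences smaller than 2-fold, and 11 of the 17 intervals lie inside it while each of the 17 crosses 0.

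The intervals show how precisely each line difference was measured. In the fit without the pool number as a block the 95% interval lay within 2-fold in both directions for 11 of the 17 probe sets, where 33% of all probe sets tested had so narrow an interval. With the dimmer 50% of probe sets left out it did so for 11 of 16 members and 49.3% of all, and with the block for 13 of 17 and 50.9% of all. It did so for the 4 probe sets of Glul, the 3 of Slc1a1, 2 of the 3 of Glud1, U15098_at of Slc1a2 and S75687_s_at of Slc1a3. S59158_at of Slc1a3 missed it slightly, with an interval from 0.92-fold to 2.03-fold. With the block its interval on the log2 scale ran from 0.09 to 0.80 and did not cross 0, with the adjusted p of 0.83 given above. The intervals of the other 5 took in changes of more than 2-fold. The median standard error was 0.29 for the 17 and 0.44 over all probe sets. The count of 11 was 7 without SLA pool 2 and 8 without SHA pool 3 or without SLA pool 3. The share of all probe sets fell there too, to 19.4%, 20.2% and 18.3% in that order.

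The sign of the differences was mostly positive, but not when SLA pool 1 was left out. SHA was higher on 12 of the 17 probe sets and lower on 5, while 48.1% of all probe sets were higher in SHA. Within the pools numbered 1 SHA was higher on 13 of the 17, within those numbered 2 on 8 and within those numbered 3 on 7. The corresponding shares of all probe sets were 44.9%, 43.8% and 55.7%. SLA pool 1 was the lowest of the 6 pools on 8 of the 17, against 24.5% of all probe sets. Without SLA pool 1, 7 of the 17 were higher in SHA, without SHA pool 1 it was 10, and without both pools numbered 1 it was 5. On the brightest probe set of each gene, 4 of the 5 member genes tested were higher with all pools. That count was 3 without SLA pool 1 and 4 without both pools numbered 1. Only S59158_at of Slc1a3 and D63772_at of Slc1a1 were higher in SHA within all 3 numbers, and only M91652complete_seq_g_at of Glul was lower within all 3. Of all probe sets, 28.0% had 1 sign within all 3 numbers.

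**Figure D3:**
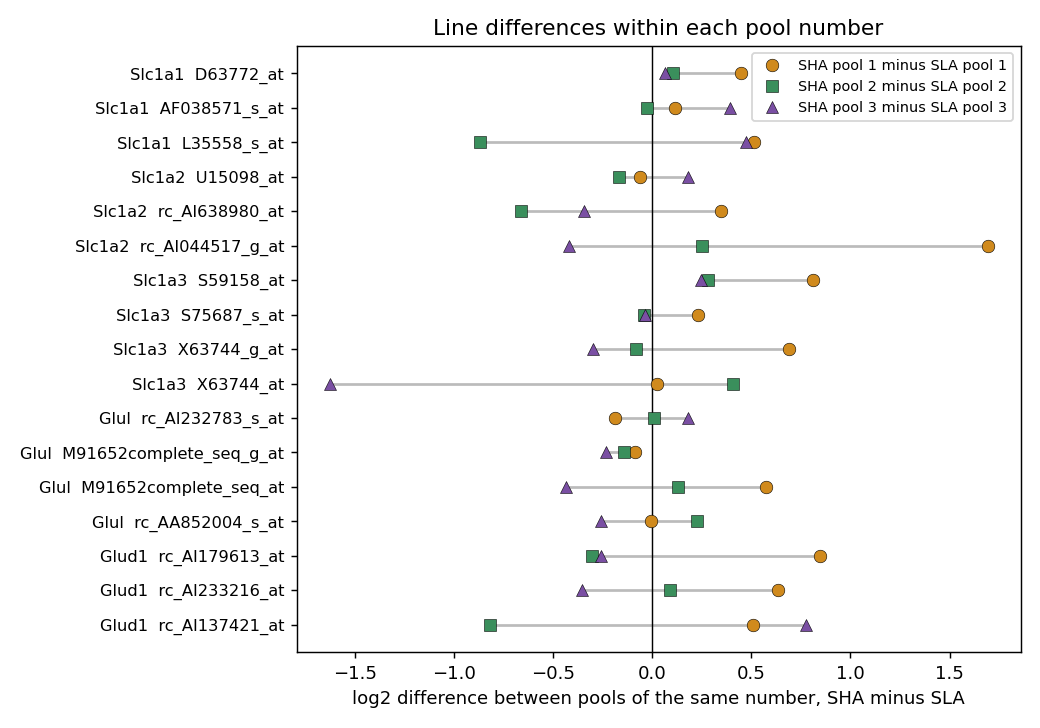
Difference between the SHA and the SLA pool of the same number (log2, horizontal axis) for the 17 tested probe sets, with a symbol for each number and a grey line over their range. For 14 of the 17 the 3 differences lie on both sides of 0, and pools numbered 1 give a positive difference for 13.

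Pool number went with more of the variation than line did, for these genes as for the array at large. Pool number has 2 degrees of freedom and line has 1, so unequal shares arise without any effect. The median share of the variation (sum of squares of log2 values over the 6 pools) was 53.6% by number and 3.40% by line over the 17 probe sets. Over all probe sets the medians were 62.4% and 7.61%. Number held more than line for 14 of the 17, against 85.3% of all probe sets, and the exceptions were S59158_at, AF038571_s_at and rc_AI044517_g_at. The arrays also differed by number in control probe sets. The geometric mean of the added bacterial and phage controls was 5458 in SHA pool 1 and 12282 in SLA pool 1, 1121 and 640 in the pools numbered 2, and 2279 and 1564 in those numbered 3. The part these controls play in the values of the members was not tested.

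**Figure D4:**
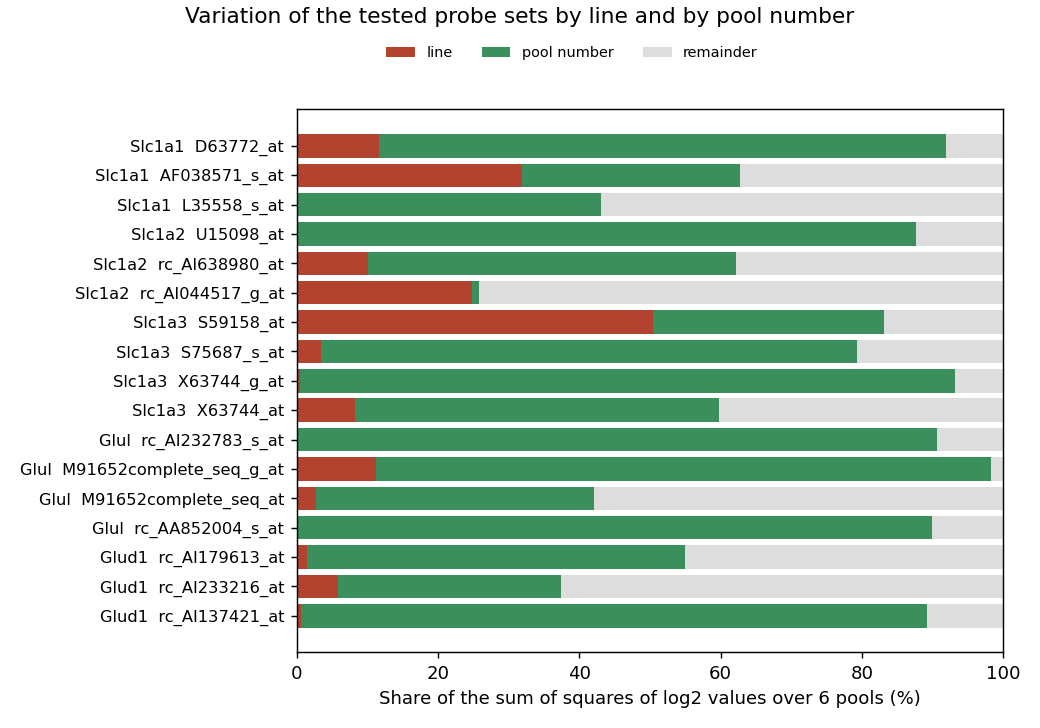
Share of the sum of squares of log2 values over the 6 pools (percent, horizontal axis) that goes with line, with pool number and with neither, for the 17 tested probe sets. Line takes the greatest share for S59158_at of Slc1a3, at 50.5%, and pool number takes 87.1% to 92.8% for 6 probe sets.

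Among the other genes that handle glutamate, glutamine or what is made from them, none passed the threshold in either direction. Of 34 such genes listed, 13 were on the array under 1 gene name and 12 were tested. On the brightest probe set of each, 10 were higher in SHA and 2 lower, with a median difference of 0.24, where 45.8% of all 3812 genes were higher and the median was -0.03. The count was 8 higher and 4 lower without SLA pool 1 or without both pools numbered 1. Gls2, a glutaminase best known from liver, read 166, 130.3 and 103 in SHA pools and 127, 99.7 and 111 in SLA pools, a difference of 0.22 ± 0.37. Got1, the cytosolic aspartate aminotransferase, differed by 0.00 ± 0.23. Slc1a6, the glutamate transporter of cerebellar Purkinje cells, was too dim to be tested, with readings of 5.4 to 18.7 in SHA pools and 5.4 to 34.3 in SLA pools over its 2 probe sets.

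Of the 17 probe sets tested for that list, 3 had pools that did not overlap, each higher in SHA. Of all probe sets tested, 2.01% were higher without overlap. The 3 belonged to Got2, Gclm and Aldh5a1. On the brightest probe set of each gene it was 2 of 12, since that of Got2 overlapped. Got2, the mitochondrial aspartate aminotransferase that links glutamate to the malate-aspartate shuttle, read 225, 149 and 144 in SHA pools and 37.0, 101 and 78.4 in SLA pools on rc_AA892012_g_at. The difference was 1.34 ± 0.47 (unadjusted p = 0.019, adjusted p = 1.00), but it was 0.26 ± 0.26 on the brighter M18467_at, where pools overlapped. The remaining Got2 probe set, rc_AA892012_at, was too dim to be tested and read 21.3, 12.4 and 28.7 in SHA pools and 8.2, 5.3 and 7.1 in SLA pools, again without overlap but with the SLA pools under the floor. Gclm, the regulatory subunit of the enzyme that joins glutamate to cysteine for glutathione, read 52.7, 38.6 and 58.6 in SHA pools and 16.4, 17.8 and 25.6 in SLA pools on S65555_g_at, a difference of 1.33 ± 0.61. Its probe set S65555_at differed by 0.09 ± 0.71, so the probe sets of this gene went apart too. The remaining Gclm probe set, rc_AI233261_i_at, was too dim to be tested, and its pools overlapped. It read 1.9, 26.1 and 30 in SHA pools and 5.9, 27.6 and 15.3 in SLA pools. Aldh5a1, which completes the breakdown of GABA to succinate, read 117, 107 and 133 in SHA pools and 86.2, 77.6 and 57.1 in SLA pools, a difference of 0.71 ± 0.40.

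Markers of the cells that carry these genes were set beside them. Of 17 astrocyte markers tested, 7 were higher and 10 lower in SHA, with a median difference of -0.09. Their summed intensity ran from 57581 to 100664 in SHA pools and from 51552 to 108766 in SLA pools. Gja1, the gap junction protein of astrocytes, read 145, 321 and 360 in SHA pools and 86.4, 383 and 297 in SLA pools. Aqp4, the astrocyte water channel, read 78.1, 329 and 173 in SHA pools and 5.1, 502 and 263 in SLA pools. Both were lowest in pool 1 of each line, as X63744_g_at of Slc1a3 was, but the list as a whole was not. Of the 17 astrocyte markers 6 were lowest in pool 1 of both lines, 5 were highest in it in both lines and 6 did neither. Apoe, the main apolipoprotein of astrocytes, was among those highest in pool 1, at 32605, 10923 and 17722 in SHA pools and 40524, 9465 and 19877 in SLA pools.

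Of 21 markers listed for excitatory neurons and tested, 18 were higher and 3 lower in SHA, with a median of 0.23. None passed the threshold. The list holds genes of neurons in general, such as Snap25 and Syn1, so it does not set excitatory neurons apart from inhibitory ones. Their summed intensity, in which the brightest probe sets weigh most, ran from 34748 to 35269 in SHA pools and from 28656 to 33042 in SLA pools. These ranges do not overlap. Taken singly, 1 of the 21 genes had pools without overlap on its brightest probe set. Of their 39 probe sets tested 2 did, against 5.66% of all probe sets. The part of these neuronal markers in the values of the members was not tested. Without SLA pool 1 the split was 12 higher to 9 lower, with a median of 0.04, and without both pools numbered 1 it was 14 to 7. Camk2a, the calcium-dependent kinase of excitatory synapses, differed by 0.28 ± 0.40, Nrgn by 0.10 ± 0.32 and Syn1, a synaptic vesicle protein, by -0.09 ± 0.31. Of 10 markers of inhibitory neurons 8 were higher (median 0.16), or 7 without SLA pool 1 (median 0.05), and their summed intensity was 4541 to 6048 in SHA pools and 3679 to 5292 in SLA pools.

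Markers of cells that do not define this cycle were mostly lower in SHA with all pools, and none passed the threshold. Those lower were 8 of 8 for microglia (median -0.54), 6 of 8 for oligodendrocytes (median -0.15), 6 of 7 for endothelium (median -0.18), 4 of 5 for choroid plexus (median -0.09) and 10 of 12 for neighbouring brain regions (median -0.22). Apart from microglia and oligodendrocytes these counts turned with single pools. Without SHA pool 2, 8 of 12 markers of neighbouring regions (median 0.17) and 3 of 5 of choroid plexus (median 0.10) were higher in SHA. Without SLA pool 1, 4 of 7 endothelial and 3 of 5 choroid plexus markers were higher and those of neighbouring regions were split 6 to 6. Microglia had at most 1 marker higher, and oligodendrocytes at most 3 of 8, with any 1 pool left out. Summed intensities overlapped between the lines for each of these lists except microglia, at 2351 to 3341 in SHA pools and 3875 to 4522 in SLA pools. No marker tested lay at the floor in all 6 pools. Their part in the values of the members was not tested.

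The transcripts whose values over the 6 pools lay closest to those of the members were looked up as a description. Likeness was the root mean square difference of log2 values, each centred on its own mean over the 6 pools, for 5201 probe sets of other genes. For S59158_at of Slc1a3 the closest were Scg5, a chaperone of a prohormone convertase, at 0.03, Rab3ip, an exchange factor for Rab proteins, at 0.07 and Bex3 at 0.10, with a median of 0.54 over the 5201. For U15098_at of Slc1a2 they were Add1, the cytoskeletal protein adducin, at 0.07, Kti12 at 0.07 and Ppp2r1a, the scaffold of a protein phosphatase, at 0.08. For D63772_at of Slc1a1 they were Srsf2, a splicing factor, at 0.03, Arf4, a small GTPase, at 0.06 and Dnaja1, a co-chaperone, at 0.07. For rc_AI232783_s_at of Glul they were Pebp1, an inhibitor of Raf kinase, at 0.04, Nedd8, a ubiquitin-like modifier, at 0.06 and Acvr1c, a receptor of the activin family, at 0.08. For rc_AI179613_at of Glud1 they were Snn, stannin, and Itpr1, a calcium release channel, each at 0.09, and Ssr3 at 0.10. None of the genes just named was an astrocyte marker of the list used here. That list had only 22 probe sets tested, beside the 5201 compared, so this absence does not show whether members follow astrocyte transcripts. The 6 pools of these profiles share the differences between arrays described above.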

How the data were processed

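Hippocampal RNA of 6 pools was measured on 6 one-colour arrays. The authors' deposited values are linear intensities of single probe sets, and their software is not given in the sources used here. From the values, arrays had been scaled to a common 2%-trimmed mean (250 on each). Values under a floor of 8.9, the 10th percentile of probe sets other than the 59 controls, were raised to it and log2 was taken. The dimmest 25% of 8740 probe sets was left out, leaving 6555. Symbols of the platform annotation were updated through gene numbers in a table of assembly GRCr8, matching 6985 of the 7006 probe sets with 1 symbol (308 had several, 1426 none listed). The test was limma (version 3.58.1, R version 4.3.3; lmFit, eBayes with an intensity trend, two-sided, Benjamini-Hochberg, threshold 0.05), tested on simulated data. The simulated noise was independent for each probe set and pool. It held no effect shared by pools of the same number, so such an effect was not covered. P-values measure the spread between pools, and 6 arrays limit the precision.

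The members and lists were chosen with earlier results of these data known. Genes named were the members, the listed neighbours with non-overlapping pools or an unadjusted p under 0.05, with Gls2, Slc1a6, Got1 and Got2, the 3 most alike genes per member with no pool at the floor, and 5 cell markers. Apoe, outside this rule, was named as an example of the astrocyte markers highest in pool 1. Mean log2 value over pools chose a gene's brightest probe set. Deviations from line means correlated at 0.44, 0.68 and 0.13 between pools numbered 1, 2 and 3 alike, each above 0.1, although SHA pool 3 correlated with SLA pool 1 at 0.16. The test, standard errors and intervals do not use the pool number unless the block is named; no label says what a number shares. Arrays correlated at 0.779 to 0.963, so none repeated another. Alternatives were other normalizations, filters, floors, variance priors, array weights, the block and leaving out pools.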

Additional observations from a re-analysis of the deposited data

How the results depend on the processing

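No member, neighbour or other probe set passed limma's adjusted threshold under any of the 17 alternatives, including the replicate block (0 of 17 members, lowest adjusted p 0.83). At an unadjusted p under 0.05 the members counted 0, and 1 with the block. Over all probe sets that count was 98, against 345 with the block, 354 with array weights, 203 without the brightness filter, 63 on the brighter 50% and 57 to 152 when 1 pool was left out. Leaving out both pools numbered 1 was chosen after seeing the data. Members with non-overlapping pools numbered 0 (5.66% of all probe sets), against 1 after median centring (4.91% of all), 3 without both pools numbered 1 (24.2% of all), and 0 to 3 when 1 pool was left out (10.8% to 15.7% of all). The median over member genes was 0.10, and 0.071 to 0.29 when 1 pool was left out, 0.0076 with array weights, 0.055 after quantile normalization and 0.15 after median centring or with no filter. Signs often turned, mostly of differences near 0 but also of rc_AI044517_g_at and X63744_at. After quantile normalization the sign turned for U15098_at (0.0095) and rc_AI232783_s_at (-0.071), and after median centring for U15098_at (0.039) and rc_AA852004_s_at (0.042). With array weights the sign turned for U15098_at (0.0076), S75687_s_at (-0.054), X63744_g_at (-0.46), D63772_at (-0.036), M91652complete_seq_at (-0.17) and rc_AI179613_at (-0.23). Without both pools numbered 1 the sign turned for rc_AI137421_at (-0.022), rc_AI179613_at (-0.28), rc_AI233216_at (-0.13), M91652complete_seq_at (-0.15), L35558_s_at (-0.20), rc_AI044517_g_at (-0.082), U15098_at (0.0062), S75687_s_at (-0.038) and X63744_g_at (-0.19). With 1 pool left out, differences ran from -0.52 to 1.03 for rc_AI137421_at, -0.30 to 0.29 for rc_AI179613_at, -0.021 to 0.34 for rc_AI233216_at, -0.14 to 0.24 for M91652complete_seq_at, -0.28 to 0.0091 for M91652complete_seq_g_at, -0.28 to 0.13 for rc_AA852004_s_at, -0.18 to 0.20 for rc_AI232783_s_at, -0.041 to 0.37 for D63772_at, -0.23 to 0.45 for L35558_s_at, -0.38 to 0.051 for rc_AI638980_at, -0.13 to 0.16 for U15098_at, -0.080 to 0.12 for S75687_s_at, -0.73 to 0.26 for X63744_at and -0.60 to 0.51 for X63744_g_at. AF038571_s_at, rc_AI044517_g_at and S59158_at kept their sign there, S59158_at at 0.27 to 0.62 and rc_AI044517_g_at at 0.20 to 0.78. The cause of the sign changes was not tested.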
